A study of Mus musculus with 9 samples.

Results

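NF-kB is a family of dimeric transcription factors held in check by the IkB proteins, and the transcripts of 10 of its genes were followed in the mouse retina: the precursors Nfkb1 and Nfkb2, the activating subunits Rel, Rela and Relb, the cytoplasmic inhibitors Nfkbia, Nfkbib and Nfkbie, and the nuclear IkB proteins Nfkbiz and Bcl3. The genes were taken by symbol, each symbol matched 1 row, and they make up 10 of the 22337 genes of the table. In resting cells the IkB proteins keep the dimers in the cytoplasm, and signals from cytokine or Toll-like receptors lead the IKK kinases to mark them for destruction, so that Rela- or Rel-containing dimers enter the nucleus. In the slower, non-canonical branch, the Nfkb2 precursor is cut to p52, which pairs with Relb. Several of these genes, Nfkbia, Nfkb2, Relb and Bcl3 among them, are themselves switched on by NF-kB, and in the degenerating retina the pathway is best known from microglia, the resident immune cells.

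All libraries were from whole retina at P28 (postnatal day 28), 3 per group. WT retinas came from C57BL/6J mice that were not injected, and both other groups were rd10 mice, which carry a missense mutation of the rod phosphodiesterase gene Pde6b and lose their photoreceptors. Littermate rd10 mice received 1 µl of normal saline (NS) or of MSC-EVs, small extracellular vesicles from mesenchymal stem cells of the human umbilical cord, into both eyes at P14 and at P21. WT and rd10 mice were bought from different suppliers, so the mutation, the origin of the mice and the injection cannot be told apart between WT and either rd10 group. Nothing in the labels says whether the libraries of a group were from separate animals, and the p-values measure the spread between these libraries only.

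The counts summed to between 19491717 and 62532343 per library, the deepest being MSC-EVs replicate 3. MSC-EVs replicates 1 and 2 stood apart: the Y-linked genes Kdm5d, Uty, Ddx3y and Eif2s3y summed to 183 and 188 CPM (counts scaled to library size with TMM factors) in them and to between 0.236 and 0.501 CPM in the other 7 libraries. The labels give no sex, and results that rest on these libraries are given with and without them. All 10 rod markers were lower in NS-treated rd10 than in WT, with a median log2 fold change of -2.06, Pde6b among them at -2.23. All 16 microglia and macrophage markers were higher, and their sum was 85.6 to 92.8 CPM in WT, 529 to 657 CPM in NS-treated and 436 to 758 CPM in MSC-EVs-treated retinas. The count of 16 is a description, as markers with few WT counts, such as Aif1 and Spi1, passed the filter on low counts through NS. Between the rd10 groups 0 of the 16 were called by edgeR, DESeq2 or limma, and at an unadjusted p under 0.05 edgeR passed 0 and DESeq2 1. Markers of infiltrating monocytes and neutrophils summed to 0.551 to 0.898 CPM in WT, with 3 of the 9 at 0 in every library, to 7.78 to 18.7 CPM with NS and to 37.7, 33.4 and 3.92 CPM in MSC-EVs replicates 1 to 3. Müller glia markers summed to 4457 to 4748 CPM in WT, 5755 to 6439 CPM with NS and 5090 to 5412 CPM with MSC-EVs. Of the 9, 4 rose between WT and NS and 0 fell, and between the rd10 groups edgeR called 0, with log2 fold changes of -0.49 to 0.60. Glul, the largest term of the sum, averaged 2679 CPM with NS and 1901 CPM with MSC-EVs. Gfap went the other way, at 299 and 450 CPM, and the log2 fold changes of the other markers were below 0. Glul and Gfap were named after their values were seen. In whole tissue, fewer cells of a type and less RNA per cell cannot be told apart, and what the change in cell markers contributes to the values below was not tested.

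The promoters of Nfkb2 and Bcl3 are shown because both genes rose in rd10 retina and both windows held the stricter of the searched forms of the kappaB motif, the site that NF-kB dimers bind. Windows of 300 bases, from 250 before to 50 after a transcript's start, were read from RefSeq (GRCm38.p6), which gave 9 windows for 7 of the 10 members, all but Nfkb1, Relb and Nfkbiz. Both strands were searched. The loose form, GGGNNNNNCC, was in 8 of the 9 windows and in 50.8% of all 32851 promoter windows. The stricter form, GGNNTTTCC, was in 6 of the 9 windows, which belong to 4 genes (Nfkb2, Bcl3, Nfkbia and Rel), and in 5.82% of all windows. A match of the stricter form can lie within a match of the loose one, as at position -10 of the first Nfkb2 window. Capitals mark the stricter form. Nfkb2 has 3 windows, the third of which overlaps the second and holds the same match, so the first and the second are printed, chr19:46304487-46304786 and chr19:46305445-46305744, both on the plus strand, with the match at position -10 and at position 12 counted from the start as 1.

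Nfkb2, first start: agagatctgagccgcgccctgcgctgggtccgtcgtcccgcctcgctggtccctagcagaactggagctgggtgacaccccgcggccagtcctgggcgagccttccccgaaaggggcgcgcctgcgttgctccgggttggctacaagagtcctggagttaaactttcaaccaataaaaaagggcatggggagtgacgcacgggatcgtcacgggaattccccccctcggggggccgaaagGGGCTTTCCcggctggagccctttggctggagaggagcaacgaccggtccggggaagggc

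Nfkb2, second start: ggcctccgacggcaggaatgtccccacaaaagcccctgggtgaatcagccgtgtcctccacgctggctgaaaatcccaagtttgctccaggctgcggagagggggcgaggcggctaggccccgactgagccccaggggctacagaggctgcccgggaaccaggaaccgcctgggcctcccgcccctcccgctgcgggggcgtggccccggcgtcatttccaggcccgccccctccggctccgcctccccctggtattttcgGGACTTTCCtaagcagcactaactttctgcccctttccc

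The Bcl3 window, chr7:19822706-19823005 on the minus strand, held the stricter form once, at position -104 and read on the opposite strand, and the loose form in 7 matches at 5 positions, both strands counted.

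Bcl3: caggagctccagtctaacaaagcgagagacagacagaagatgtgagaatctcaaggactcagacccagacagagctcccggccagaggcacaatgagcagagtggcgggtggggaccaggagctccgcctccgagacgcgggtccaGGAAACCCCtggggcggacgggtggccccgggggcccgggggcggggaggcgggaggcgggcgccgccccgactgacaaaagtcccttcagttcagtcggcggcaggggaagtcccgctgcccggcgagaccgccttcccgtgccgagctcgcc

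The window of Nfkbia, which encodes the best known inhibitor, was chosen after its values were seen and is shown for comparison, as its transcript stayed under the fold limit. It lies at chr12:55492598-55492897 on the minus strand and held the stricter form at 2 positions, -178 and -29.

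Nfkbia: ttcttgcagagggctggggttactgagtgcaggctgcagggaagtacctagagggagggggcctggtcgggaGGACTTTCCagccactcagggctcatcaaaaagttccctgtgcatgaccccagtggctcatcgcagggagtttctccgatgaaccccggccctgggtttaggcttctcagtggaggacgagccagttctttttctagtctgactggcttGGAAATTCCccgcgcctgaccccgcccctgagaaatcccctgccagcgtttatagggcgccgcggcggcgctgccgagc

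Whether the family differed between healthy and degenerating retina was asked by comparing NS-treated rd10 with WT. Transcripts of 4 of the 10 members rose at least 2-fold: both nuclear IkB genes, Bcl3 (17.6-fold) and Nfkbiz (2.91-fold), and both genes of the non-canonical pair, Nfkb2 (4.54-fold) and Relb (3.70-fold). Bcl3, with 6 counts in WT replicate 3, passed the filter on low counts through NS, so its place among the 4 is a description. None fell by edgeR, DESeq2 or limma, and 0 were lower at an unadjusted p under 0.05. Genes were called differentially expressed at an adjusted p under 0.05 (edgeR's quasi-likelihood test, Benjamini-Hochberg over all 14644 genes tested) and a change of 1 or more on the log2 scale in either direction, and by this rule 9.16% of all genes tested were higher and 3.56% lower. Without the fold limit, 9 of the 10 members were higher, all but Nfkbib, and none was lower, against 31.2% of all genes higher and 30.1% lower. With all 9 libraries in 1 fit, 6 were higher, as Rel, Nfkbia and Nfkbie did not pass (edgeR adjusted p = 0.118, 0.135 and 0.0598). Without WT replicate 1 it was 7, less Nfkbia and Nfkbie, and without WT replicate 2 or NS replicate 2 it was 8, less Nfkbia. The libraries of both groups did not overlap for 9 members, which was so for 66.9% of all genes. The median log2 fold change was 0.68 over the members and 0.01 over all genes.

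**Figure D1:**
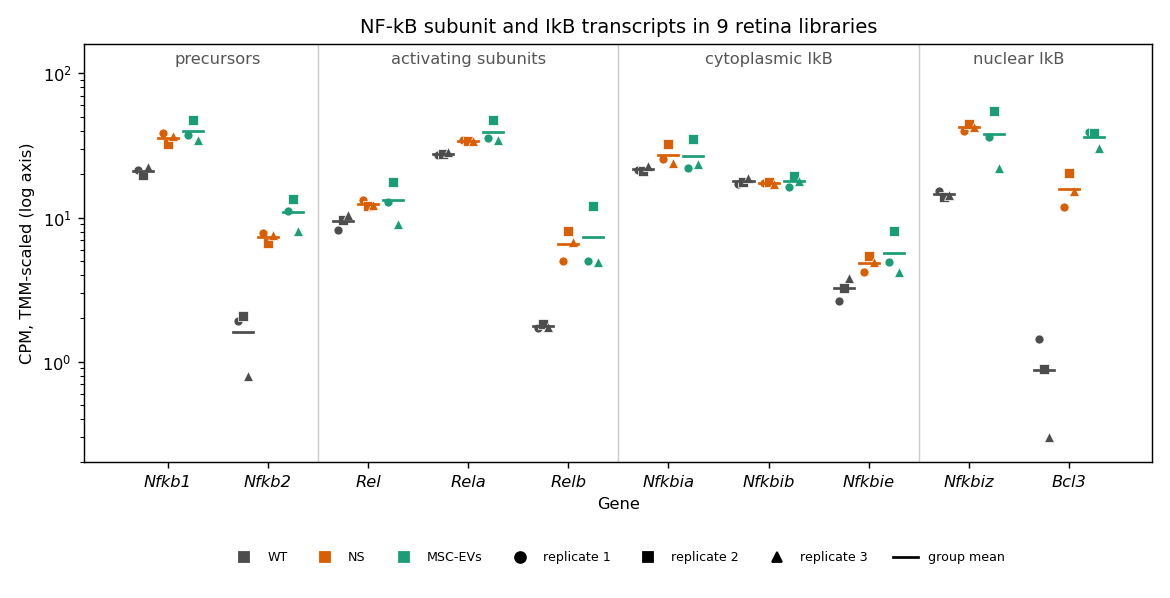
CPM of each member (log axis) in the 9 libraries, coloured by group, with the shape giving the replicate and a bar the group mean. Bcl3, Nfkb2, Relb and Nfkbiz stand clear of WT in all 6 rd10 libraries, as do Nfkb1, Rela and Nfkbie with smaller mean changes. Nfkbib is level across the groups. In the MSC-EVs group the square, replicate 2, is highest for 9 of the 10 genes.

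Among the precursors, Nfkb1 (chr3:135584655-135691547, GRCm38), which yields p50, was at 21.5, 19.6 and 22.3 CPM in the WT libraries and at 38.4, 32.4 and 36.8 CPM in the NS-treated ones. Every NS-treated library was above every WT library, and the log2 fold change was 0.77 (SE 0.09, edgeR adjusted p = 1.21e-05), under the fold limit. Nfkb2 (chr19:46304320-46312385), which yields p52, was at 1.93, 2.06 and 0.802 CPM in WT and at 7.77, 6.65 and 7.59 CPM with NS. It rose by a log2 fold change of 2.18 (SE 0.26, edgeR adjusted p = 1.86e-05). WT replicate 3, with 16 counts of Nfkb2, lay below the other WT libraries, with 43 and 46. On the opposite strand, 11.6% of the exon bases of Nfkb2 are shared with the non-coding gene AC114539.1 and 6.5% with Psd. The sources used here do not say that the counting used strand.

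The activating subunits were split. Rela (chr19:5637483-5648130), the p65 subunit of the common dimer, was at 27.2, 27.5 and 28.4 CPM in WT and at 34.4, 34.1 and 34.1 CPM with NS, a log2 fold change of 0.31 (SE 0.07, edgeR adjusted p = 0.002). Rel (chr11:23736847-23770970), known from lymphocytes and myeloid cells, went from 9.40 ± 1.10 to 12.5 ± 0.685 CPM (SD, n = 3 each), with a log2 fold change of 0.41 (SE 0.12, edgeR adjusted p = 0.00839). These are small differences whose libraries nevertheless did not overlap. Relb (chr7:19606217-19629438), the partner of p52, was at 1.71, 1.84 and 1.75 CPM in WT and at 4.997, 8.02 and 6.77 CPM with NS. It rose by a log2 fold change of 1.89 (SE 0.21, edgeR adjusted p = 8.85e-06). Its 95% interval, 1.44 to 2.34, lay above those of Rela (0.16 to 0.46) and Rel (0.16 to 0.67).

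None of the cytoplasmic inhibitors reached the fold limit. Nfkbia (chr12:55489410-55492647), which encodes IkB alpha, was at 21.5, 21.1 and 22.7 CPM in WT and at 25.7, 32.5 and 23.8 CPM with NS, a log2 fold change of 0.33 (SE 0.11, edgeR adjusted p = 0.0216). Nfkbie (chr17:45555703-45563169, IkB epsilon) went from 3.23 ± 0.580 to 4.85 ± 0.626 CPM (SD, n = 3 each), a log2 fold change of 0.58 (SE 0.19, edgeR adjusted p = 0.0171). Both were higher in every NS-treated library than in any WT library. Nfkbib (chr7:28758251-28767512, IkB beta) was at 17.0, 17.6 and 18.9 CPM in WT and at 17.4, 17.5 and 17.2 CPM with NS. It was the member whose groups overlapped, with a log2 fold change of -0.04 and a 95% interval of -0.22 to 0.14 (edgeR adjusted p = 0.714). The sign turned on the log2(FPKM + 1) scale, at 0.13, where the median of all genes was 0.137. Of the exon bases of Nfkbib, 14.5% are shared with Ccer2 and 1.9% with Sirt2 on the opposite strand.

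The nuclear IkB genes, whose proteins act with p50 or p52 at promoters in place of holding dimers in the cytoplasm, included the member with the largest fold change. Nfkbiz (chr16:55811375-55838899), a co-activator at a subset of inflammatory genes, was at 15.3, 13.8 and 14.3 CPM in WT and at 39.7, 44.5 and 42.3 CPM with NS. It rose by a log2 fold change of 1.54 (SE 0.08, edgeR adjusted p = 1.81e-08), which placed it 157th by p among the genes tested. Bcl3 (chr7:19808462-19822770), which binds p50 and p52 homodimers, had 32, 20 and 6 counts in the WT libraries and 353, 418 and 333 counts in the NS-treated ones. In CPM these were 1.44, 0.895 and 0.301 against 11.9, 20.4 and 15.2, so the lowest NS-treated library was several times above the highest WT library. Bcl3 rose by a log2 fold change of 4.13 (SE 0.38, edgeR adjusted p = 4.0e-05), and the few WT counts leave a wide interval of 3.25 to 5.02. Antisense gene Gm16175 shares 6.5% of its exon bases. A further nuclear IkB gene outside the 10, Nfkbid, was at 3.04 CPM in WT and 2.96 CPM with NS on average, with a log2 fold change of -0.03 (SE 0.19, edgeR adjusted p = 0.888).

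**Figure D2:**
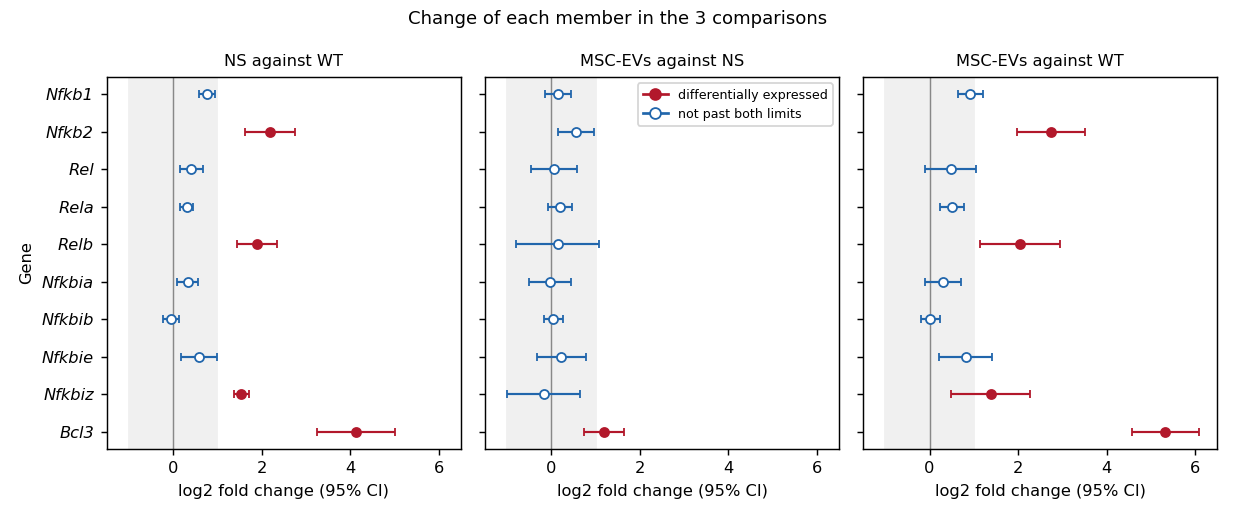
Log2 fold change of each member with its 95% interval in the 3 comparisons. The grey band spans -1 to 1, and filled red points are differentially expressed. Bcl3 is the one filled point between MSC-EVs and NS, at 1.19, and the same 4 genes are filled in both comparisons with WT, which share the WT libraries.

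The next comparison asked whether the vesicles changed the family in the degenerating retina, with MSC-EVs-treated against NS-treated rd10. Of the 10 members, 1 was higher at the fold limit, Bcl3, and 0 were lower, against 0.0542% of the 14765 genes tested that were higher and 0.00677% that were lower. Without the fold limit the members' counts were again 1 and 0, beside 0.914% and 0.251% of all genes. The groups did not overlap for 3 members (Bcl3, Nfkb2 and Rela, each above NS), which was so for 26.2% of all genes. The median change on the log2 scale was 0.15 over the members, and -0.13 with the libraries lacking Y-linked counts alone. At an unadjusted p under 0.05, 2980 of all genes (20.2%, in either direction) passed, Bcl3 and Nfkb2 among them and 0 members on the lower side.

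Bcl3 had 936, 903 and 1953 counts in MSC-EVs replicates 1 to 3, or 39.0, 38.5 and 30.5 CPM, beside 11.9, 20.4 and 15.2 CPM with NS. The lowest MSC-EVs library was above the highest NS library. The log2 fold change was 1.19 (SE 0.20, 95% interval 0.73 to 1.65), a 2.28-fold rise (edgeR adjusted p = 0.0447). The level of Bcl3 was thus further from WT with MSC-EVs than with NS. The adjusted p passed 0.05 narrowly, and over 18 alternatives it ran from 3.01e-08 to 0.206, with a log2 fold change of 0.95 to 1.41. The call was lost without NS replicate 3 (1.17, adjusted p = 0.206), without MSC-EVs replicate 1 (1.13, adjusted p = 0.188) and without MSC-EVs replicate 2 (1.14, adjusted p = 0.0511), all by edgeR's quasi-likelihood test. With the libraries that lack Y-linked counts alone, NS replicates 1 to 3 against MSC-EVs replicate 3, the log2 fold change was 0.96 (edgeR adjusted p = 0.113), the lone library being taken to vary like the others.

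None of the subunits passed the test. Nfkb2 was at 11.1, 13.4 and 8.11 CPM with MSC-EVs, above the 6.65 to 7.77 CPM of the NS libraries, with a log2 fold change of 0.56 (95% interval 0.14 to 0.97, edgeR adjusted p = 0.143). In the libraries lacking Y-linked counts the value was 0.14 (edgeR adjusted p = 0.724). Rela was at 35.6, 47.8 and 34.6 CPM, a log2 fold change of 0.20 (interval -0.07 to 0.47, edgeR adjusted p = 0.388). Nfkb1, at 37.1, 47.8 and 34.6 CPM, and Rel, at 12.8, 17.7 and 8.97 CPM, overlapped with NS, with log2 fold changes of 0.15 (interval -0.14 to 0.44) and 0.06 (interval -0.46 to 0.58). Relb was at 5.005, 11.97 and 4.94 CPM, so that a single library carried the group's mean above NS, and in replicate 3 both Rel and Relb lay below every NS library. Its log2 fold change of 0.14 had an interval of -0.80 to 1.08, wide enough for a change of 2-fold upward.

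None of the cytoplasmic inhibitors passed the test. Nfkbia was at 22.0, 35.0 and 23.5 CPM with MSC-EVs, beside 25.7, 32.5 and 23.8 CPM with NS, a log2 fold change of -0.03 (interval -0.49 to 0.44, edgeR adjusted p = 0.963). For Nfkbib it was 0.05 (interval -0.17 to 0.27) and for Nfkbie 0.23 (interval -0.33 to 0.79). The interval of Nfkbib was the narrowest of the 3.

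Nfkbiz had the widest ratio of highest to lowest MSC-EVs library. It was at 36.1, 54.8 and 22.2 CPM in replicates 1 to 3, beside 39.7 to 44.5 CPM with NS, so replicate 2 lay above and replicate 3 below all NS libraries. The log2 fold change was -0.17 (interval -1 to 0.66, edgeR adjusted p = 0.821). In the libraries lacking Y-linked counts, where replicate 3 alone stood for the group, it was -0.93 (edgeR adjusted p = 0.0096), short of the fold limit.

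This spread ran through the family. Within the MSC-EVs group, replicate 2 was the highest library for 9 of the 10 members and replicate 3 the lowest for 8, the exceptions being Bcl3, highest in replicate 1, and Nfkbia and Nfkbib, lowest in replicate 1. The share of all genes with this order was not counted, so it may not be particular to the family. The highest library exceeded the lowest by 2.48-fold for Nfkbiz, 2.42-fold for Relb, 1.97-fold for Rel and 1.91-fold for Nfkbie, and by 1.28-fold for Bcl3 and 1.19-fold for Nfkbib. With NS the largest such ratio was 1.72-fold, for Bcl3. The microglia and macrophage markers stood in the same order within the MSC-EVs group, with sums of 640, 758 and 436 CPM in replicates 1 to 3. Those of infiltrating monocytes and neutrophils summed to 37.7, 33.4 and 3.92 CPM. Pigment epithelium markers summed to 83.8, 69.8 and 207 CPM, beside 230, 55.5 and 160 CPM in NS replicates 1 to 3. The part of any of these cells in the members' spread was not tested. Bcl3 alone among the members was as high in replicate 1 as in replicate 2.

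Against WT, MSC-EVs-treated retinas had the same 4 members higher at the fold limit, Bcl3, Nfkb2, Relb and Nfkbiz, and 0 lower, against 9% and 3.2% of the 14623 genes tested. Here too Bcl3 passed the filter on low counts through the rd10 libraries, so its place among the 4 is a description. Without the fold limit, 7 members were higher and 0 lower, against 28.3% and 27.2% of all genes. The groups did not overlap for 7 members and for 65.1% of all genes. The log2 fold changes were 5.33 for Bcl3 (SE 0.32), 2.75 for Nfkb2 (SE 0.33), 2.04 for Relb (SE 0.39) and 1.38 for Nfkbiz (SE 0.36), with edgeR adjusted p-values of 2.04e-05, 0.000257, 0.00292 and 0.0215. Set beside these, the changes with NS were 4.13, 2.18, 1.89 and 1.54. Nfkbiz lost its call without any 1 of the WT libraries (adjusted p = 0.0564 to 0.0637) and, at 0.99, below the fold limit, without MSC-EVs replicate 2. With MSC-EVs replicate 3 alone against WT, 3 members were called, Nfkb2, Relb and Bcl3, and Nfkbiz stood at 0.61. Rel and Nfkbia, which passed the adjusted p with NS in the fit of 2 groups but not in that of all 9 libraries, overlapped WT with MSC-EVs, at 0.48 (edgeR adjusted p = 0.133) and 0.30 (edgeR adjusted p = 0.171), and this difference between the rd10 groups is the one tested above, with 0.06 and -0.03.

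**Figure D3:**
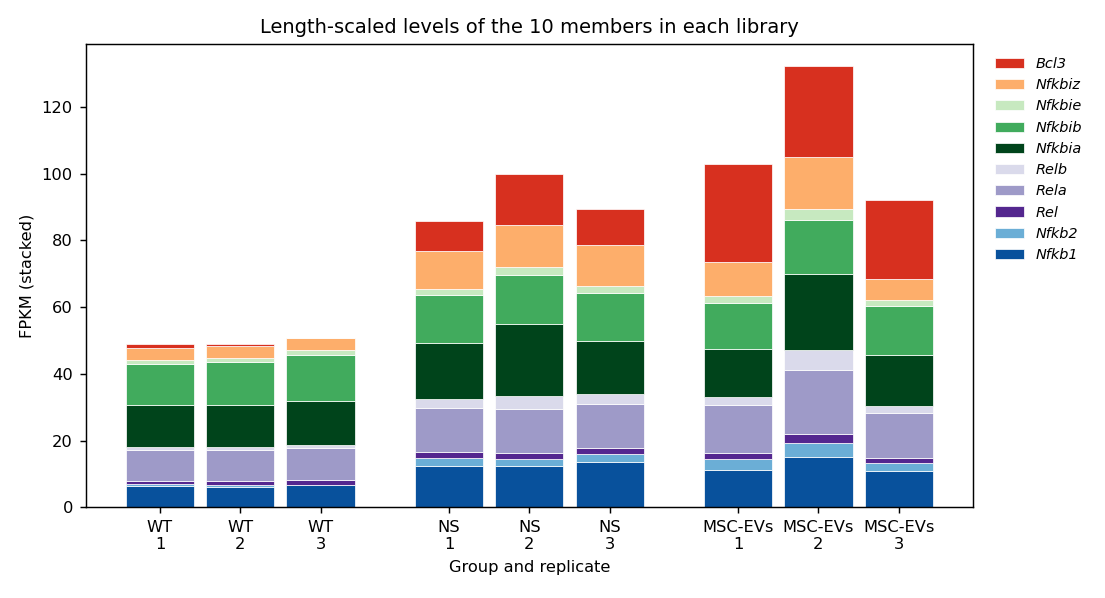
FPKM of the 10 members stacked for each library. The stack is 49.0 to 50.9 FPKM in WT, 85.7 to 99.8 with NS and 92.0 to 132 with MSC-EVs, and the Bcl3 segment at the top widens from WT to NS and again to MSC-EVs. FPKM carries no TMM factor, unlike the CPM values.

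Levels of different genes were compared on the FPKM scale, which divides by transcript length. In WT the order was led by Nfkbib (13.1 FPKM) and Nfkbia (12.8), whose libraries overlapped, followed by Rela (9.43), Nfkb1 (6.36) and Nfkbiz (3.66), each apart from its neighbours. Nfkbie, Rel, Relb, Bcl3 and Nfkb2 were at 1.22 FPKM or less. In NS-treated retina Nfkbia led at 18.1 ± 3.07 FPKM (SD, n = 3), and Nfkbib (14.5) came next. Rela, Nfkb1, Nfkbiz and Bcl3 followed at 13.2, 12.7, 12.2 and 11.5 FPKM, neighbours that overlapped. With MSC-EVs, Bcl3 led at 26.8 ± 2.93 FPKM (SD, n = 3), and its lowest library (23.7) was above the highest of Nfkbia (23.0), the next in order at 17.6. By group mean, Bcl3 went from the 9th place of 10 in WT to the 6th with NS and the 1st with MSC-EVs. By library its places were 6, 9 and 10 in WT, where it overlapped its neighbours, 6, 2 and 6 with NS and 1 in each MSC-EVs library. It made up 0.295% to 2.20% of the family's summed FPKM in the WT libraries, 10.3% to 15.1% with NS and 20.6% to 28.6% with MSC-EVs. Relb, Nfkb2, Nfkbie and Rel filled the last 4 places in both rd10 groups.

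The balance of inhibitors to subunits was read as the summed FPKM of Nfkbia, Nfkbib and Nfkbie divided by that of the 5 subunits. It was 1.45, 1.47 and 1.54 in the WT libraries, 1.02, 1.15 and 0.949 with NS and 0.909, 0.902 and 1.04 with MSC-EVs. All 6 rd10 libraries were below all WT libraries, by 0.45 with NS and 0.54 with MSC-EVs on average, and the exact two-sided permutation p was 0.1 for each, the smallest that 3 against 3 libraries allow. The rd10 groups overlapped, with a difference of -0.09 (exact permutation p = 0.3). Behind the lower ratio, the subunit sum went from 18.2 ± 0.311 to 33.3 ± 0.843 FPKM between WT and NS, and the inhibitor sum from 27.1 ± 1.27 to 34.7 ± 3.37 FPKM (SD, n = 3 each). FPKM carries no TMM factor. On the log2(FPKM + 1) scale the median change of all genes between WT and NS was 0.137, and both sums include such a shift. With Nfkbiz and Bcl3 added to the upper sum, the differences were 0.23 for MSC-EVs against NS, 0.26 for MSC-EVs against WT and 0.03 for NS against WT. The last rests on NS replicate 2, as the ratio was 1.64, 1.99 and 1.62 with NS beside 1.73, 1.71 and 1.74 in WT, and the difference without that library was -0.09.

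**Figure D4:**
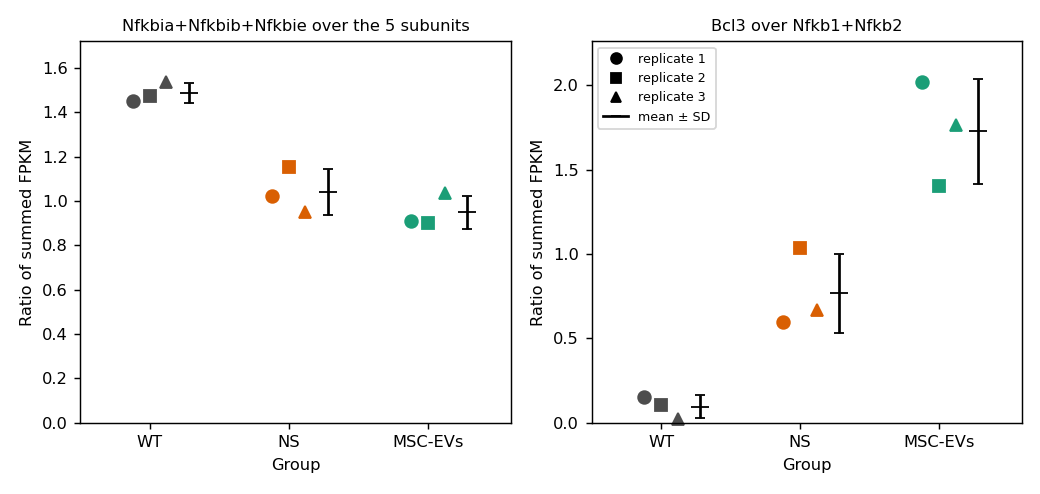
Ratios of summed FPKM per library, with mean ± SD beside the points. Left, the 3 cytoplasmic inhibitors over the 5 subunits, where all WT libraries lie above all rd10 libraries. Right, Bcl3 over the precursors Nfkb1 and Nfkb2, with means of 0.0947 in WT, 0.768 with NS and 1.73 with MSC-EVs.

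Bcl3 was also set against the genes of the proteins it binds, a ratio chosen after its values were seen and given with no test. Bcl3 over Nfkb1 plus Nfkb2 was 0.155, 0.107 and 0.0221 in the WT libraries, 0.600, 1.04 and 0.667 with NS and 2.02, 1.40 and 1.76 with MSC-EVs. The 3 groups did not overlap. In NS-treated retina the precursors were, with 1 library excepted, the more abundant transcripts per length, and in every MSC-EVs library Bcl3 was.

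The 5 genes whose pattern over the 9 libraries was most like that of Bcl3, by the root mean square difference of log2 CPM from the WT mean among 13827 genes with a mean of at least 1 CPM, were Steap4 (0.365), Csf2rb (0.431), Fcgr2b (0.46), Fgl2 (0.556) and A2m (0.562). Steap4 is a metalloreductase, Csf2rb the shared beta chain of the GM-CSF and interleukin-3 receptors and Fcgr2b an inhibitory receptor for IgG. Fgl2 is a fibrinogen-like protein and A2m a protease inhibitor of plasma. Steap4 averaged 1.42 CPM in WT, 28.7 with NS and 55.9 with MSC-EVs. Csf2rb is uncertain, as 12.3% of its 50-base stretches are shared with other genes, chiefly its paralogue Csf2rb2, and for Fcgr2b the share was 4.4%, chiefly with Fcgr3. For Bcl3 it was 0, and for none of the 10 members was it over 0.6%.

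Upstream and downstream of the members, 5 lists of pathway genes were followed. Between WT and NS, of the 10 receptors, 8 rose and 0 fell (median log2 fold change 1.81), and of the 28 target genes 22 passed the filter on low counts, of which 18 rose and 0 fell. A gene that passed the filter through its NS counts alone had to differ, so the counts of risen genes in these lists are a description. Outside the targets, Ikbke, Birc3, Card9 and the receptor Tlr4 also had few WT counts and passed through NS. The target median was 3.58, or 3.10 with the 4 genes of at most 3 counts over the WT libraries set at a floor of 3 counts per library. Of the other lists, 1 of 11 IKK subunits and activating kinases rose and 0 fell (median -0.12), 4 of 18 adaptors and ubiquitin ligases rose and 0 fell (median 0.13), and 2 of 11 negative regulators rose while 1 fell (median 0.12). The negative regulator that fell, Tnfaip3 (-2.42), is itself a target of the pathway. It was not in the target list, so the 0 fallen targets depends on how the genes were listed. All these counts are to be read against the 9.16% and 3.56% of all genes given above. DESeq2, run without that filter, called the same numbers but for 22 of all 28 targets. These included Tnf, Il6, Ccl3 and Cxcl2, which had no WT counts and were not tested by edgeR. On log2(FPKM + 1), limma called fewer, with 6 receptors, 15 targets, 0 kinases, 1 adaptor and 0 negative regulators higher and 1 negative regulator lower.

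**Figure D5:**
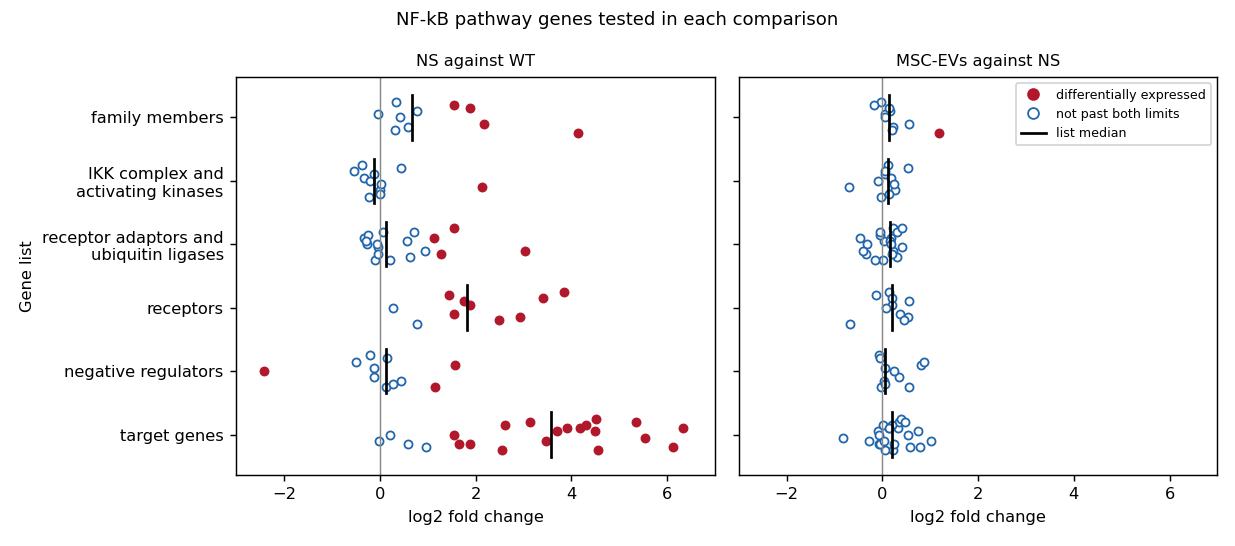
Log2 fold change of every tested gene of the family and of 5 pathway lists, with the list median as a bar and differentially expressed genes filled. NS against WT is on the left, where the receptors and all targets but Sod2 (-0.03) lie to the right of 0. MSC-EVs against NS is on the right, where Bcl3 is the single filled point. Values of target genes with almost no WT counts depend on the fit.

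Among the receptors, Tlr2, the receptor for bacterial lipoproteins, went from 0.641 to 9.26 CPM on average (log2 fold change 3.86, SE 0.35), Tnfrsf1b, the second TNF receptor, from 1.33 to 14.1 CPM (3.41, SE 0.22) and Tlr4, the lipopolysaccharide receptor, from 0.431 to 3.28 CPM (2.92, SE 0.34), with edgeR adjusted p-values of 5.70e-06, 1.07e-07 and 1.24e-05. Of the kinases, Ikbke, an IKK-related kinase, was the one that rose, from 0.351 to 1.59 CPM (2.13, SE 0.47, edgeR adjusted p = 0.00177), while Ikbkb, which encodes the kinase that phosphorylates IkB alpha, was at 37.4 and 34.4 CPM (-0.12, SE 0.07, edgeR adjusted p = 0.149). Map3k14, the kinase of the non-canonical branch to which Nfkb2 and Relb belong, was at 22.5 CPM in WT and 17.9 CPM with NS (-0.34, SE 0.09, edgeR adjusted p = 0.00844), lower and under the fold limit. Ikbkb and Map3k14 were chosen after their values were seen. Among adaptors and ligases, Birc3, a ubiquitin ligase also known as cIAP2, rose 3.03 on the log2 scale (SE 0.32), Card9, an adaptor of myeloid lectin receptors, 1.56 (SE 0.42) and Irak2, a kinase of the Toll and interleukin-1 receptor complex, 1.27 (SE 0.08). Of the 50-base stretches of Birc3, 7.4% occur in other genes.

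Tnfaip3, which encodes the ubiquitin-editing enzyme A20 that ends NF-kB signalling and is itself a target of the pathway, went the other way. It was at 405, 364 and 380 CPM in the WT libraries and at 76.5, 74.1 and 64.1 CPM with NS. It fell by 2.42 on the log2 scale (SE 0.08, edgeR adjusted p = 5.62e-10), and in MSC-EVs-treated retinas it was at 65.6, 75.3 and 112 CPM. The fall was close in size to the rod markers' median of -2.06, and whether rods carried the transcript was not tested. The other negative regulators that changed were Irak3, an inhibitor of signalling from the Toll receptor complex, and Zc3h12a, a ribonuclease that cuts cytokine transcripts, which rose by 1.56 (SE 0.23) and 1.15 (SE 0.32).

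The target genes with the largest fitted change, the chemokine genes Ccl2 and Cxcl1 and the acute-phase gene Saa3, had 1 count each over the 3 WT libraries, so no fold is given. With NS, Ccl2 had 66, 41 and 17 counts, Cxcl1 47, 30 and 28 and Saa3 38, 17 and 16. With MSC-EVs, replicate 2 stood out for both chemokines, with 132 counts of Ccl2 and 145 of Cxcl1, against 15 and 18 in replicate 1 and 22 and 54 in the deeper replicate 3.

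Between MSC-EVs and NS, 0 genes of any of the 5 pathway lists were differentially expressed by edgeR, DESeq2 or limma. Of the 11 kinases, 19 adaptors and ligases, 10 receptors, 11 negative regulators and 23 targets that edgeR tested, 3, 5, 3, 3 and 1 were higher at an unadjusted p under 0.05 and 0 were lower, beside the 20.2% of all genes that passed this p in either direction. Without the fold limit, edgeR's test passed 2, Tnip2 (0.86, adjusted p = 0.0261), an A20-binding inhibitor, and Rnf31 (0.41, adjusted p = 0.0465), a subunit of the linear ubiquitin ligase, both higher and both named after their values were seen. With the libraries lacking Y-linked counts alone, a setting chosen for these lists after the data were seen, Tnip2 was the 1 gene called in these lists. The medians of the lists lay between 0.05 for negative regulators and 0.21 for receptors, that of the target genes being 0.20. With MSC-EVs replicate 3 alone, 4 of the 5 medians were below 0, at -0.48 for targets, -0.28 for receptors, -0.0249 for negative regulators and -0.00521 for adaptors and ligases, and that of the kinases was 0.0721. Irak3 was at 4.67, 5.16 and 4.71 CPM with MSC-EVs, above the 2.70 to 2.84 CPM with NS (0.80, edgeR adjusted p = 0.0582).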

How the data were processed

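Retinal mRNA of the WT, NS and MSC-EVs groups was sequenced, 3 libraries in each. The table deposited by the authors gives an expected count and an FPKM value for 22337 genes per library. Per the labels, fastp, Bowtie2, HISAT2, StringTie 1.3.1 and RSEM were used. The genome build of the counting is not given in the sources used here. The deposited expected counts were not scaled and carried decimals for 9.16% to 11.7% of genes. They were rounded here. The FPKM values deposited by the authors are scaled for length and depth. All columns were matched to a library.

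Pairs of groups were tested with edgeR 4.0.16 in R 4.3.3 (filterByExpr, TMM, glmQLFit with robust estimation, glmQLFTest), all genes in the fit and Benjamini-Hochberg adjustment. Standard errors were taken as the log2 fold change over the square root of F. Ratios were compared by exact permutation. Tools were tested on simulated data. Positions came from GENCODE M21 (GRCm38) by identifier. The alternatives were other scalings and filters, the Wald test of DESeq2 1.42.0, limma 3.58.1 on log2(FPKM + 1) and log2(FPKM + 0.1), all libraries together, a replicate block, Y-linked terms and each library left out.

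The members and lists were chosen with earlier results of these data known. All members were named, with Nfkbid, and from each pathway list every gene differentially expressed between MSC-EVs and NS and the 3 with the largest log2 fold change among those differentially expressed between NS and WT. Other genes were named as examples or by a rule given with them, or are marked as chosen after their values were seen. Members are not replicates of a condition.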

Additional observations from a re-analysis of the deposited data

How the results depend on the processing

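For NS against WT, the count of 4 members kept its value under the other scalings and tests and with each library left out, and was 9 with no fold limit and 3 with at least 10 counts in every library, which removed Bcl3 from the test. For MSC-EVs against NS, the count of 1 became 0 with upper-quartile factors, with Y-linked expression as a covariate and with the libraries lacking Y-linked counts alone, and ran from 0 to 1 with each library left out. Bcl3 was then at 1.15 (adjusted p = 0.0507), 0.95 (adjusted p = 0.12) and 0.96 by edgeR's test. For MSC-EVs against WT, the count of 4 was 7 with no fold limit, 3 with at least 10 counts in every library and with either Y-linked setting, and 3 to 6 with each library left out (6 without MSC-EVs replicate 3). The main fits did not pair libraries by replicate number. Correlations of same-numbered libraries were 0.0931, 0.18 and 0.272 between MSC-EVs and NS and 0.0365, -0.059 and -0.0562 between NS and WT. Differently numbered libraries were not set beside them, so these values cannot decide whether the numbers mark pairs. A replicate block gave 4, 1 and 4 members in the 3 comparisons and 21 in place of 9 genes between MSC-EVs and NS. With each library left out, that count of genes ran from 0 (without NS replicate 3 or MSC-EVs replicate 1) to 82 (without MSC-EVs replicate 2). It was 85 with the libraries lacking Y-linked counts alone, 28 with the Y-linked covariate, 31 with DESeq2, 38 with all libraries in 1 fit and 172 with no fold limit.

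The ratio of cytoplasmic inhibitors to subunits differed by -0.18 (NS against WT) and -0.24 (MSC-EVs against WT) with summed CPM, which weights long transcripts more. With nuclear IkB genes added, it turned to 0.028, 0.229 (MSC-EVs against NS) and 0.257.

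Members with small changes turned direction, none of them called. Nfkbib, NS against WT, was 0.13 and 0.14 with limma at pseudocounts of 1 and 0.1, where the median of all genes moved to 0.137 and 0.174, and -0.0693 to 0.00905 with each library left out. Between MSC-EVs and NS, Nfkb1 was -0.0511 and -0.0557 with limma, and Nfkb1, Rel, Relb and Nfkbie were -0.0463, -0.47, -0.42 and -0.21 with the Y-linked covariate and -0.0524, -0.48, -0.41 and -0.20 with the libraries lacking Y-linked counts. With each library left out, the ranges were -0.21 to 0.29 for Rel, -0.40 to 0.37 for Relb, -0.26 to 0.12 for Nfkbia, -0.0136 to 0.11 for Nfkbib, -0.0909 to 0.42 for Nfkbie and -0.55 to 0.11 for Nfkbiz. Without MSC-EVs replicate 2, Rel, Relb, Nfkbib and Nfkbie were below NS. Against WT, Rel was -0.0651 with the Y-linked covariate and -0.066 with the libraries lacking Y-linked counts, and Nfkbib -0.00386 with the covariate and -0.0548 to 0.0739 with each library left out. The causes were not tested. The few WT counts of Bcl3 limit its log2 fold change against WT, which ran from 2.94 to 4.68 with NS and from 4.11 to 5.87 with MSC-EVs.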
